A study of Mus musculus with 12 samples.

Results

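The Iroquois homeobox genes of the mouse, Irx1 to Irx6, were described across 12 RNA-seq libraries of embryonic stem cells and of anterior neural progenitors made from them. They were chosen by gene symbol, which took 6 of the 21253 genes of the deposited table. The rule itself uses no measured value, although these genes were picked for description with earlier results of the data known. They lie in 2 clusters of 3 genes, and the Irx1, Irx2 and Irx4 cluster was compared with the Irx3, Irx5 and Irx6 cluster. Of the 6, 5 (all but Irx6) passed a filter of 1 FPKM or more in 2 or more libraries and were tested. FPKM are fragments scaled by transcript length and by library size, so levels may be set side by side between genes.

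The series compares a WT line with a line labelled EED-/-, before and after neural differentiation, in a study of Polycomb repressive complex 2 (PRC2) and poised enhancers. EED is a core subunit of PRC2, which places methyl groups on histone H3 at developmental genes that are kept silent. Stem cells were sequenced as 2 libraries of WT mESC and 2 of EED-/- mESC, and progenitors as 4 libraries of WT AntNPC and 4 of EED-/- AntNPC. The mESC, mouse embryonic stem cells, were kept untreated on gelatin in medium with serum and LIF. WT is the E14 line, and the EED-/- line had been made and published earlier, per the labels. The AntNPC of both genotypes are anterior neural progenitors grown from these lines for 5 days in N2B27 medium. All of them received 10 ng/ml bFGF up to day 3 and 5 uM Xav939, a WNT inhibitor, from day 2 to day 5. Each genotype is 1 line, so other differences between the lines cannot be told apart from the genotype. Whether replicates were grown separately is not in the labels, so the p-values rest on the spread of these samples, and that spread may be technical.

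Iroquois genes encode transcription factors with a homeodomain of the three-amino-acid-loop-extension (TALE) class. They help to set territories along the neural plate and neural tube, where Irx3 borders the anterior domain of Six3, and they also act in the heart, limb, lung and retina. PRC2 is known to cover both clusters with methylated histone H3 in embryonic stem cells, as it does for many developmental regulators.

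On GRCm38 (GENCODE M21), Irx1 (ENSMUSG00000060969) was at chr13:71957921-71963723 on the minus strand, Irx2 (ENSMUSG00000001504) at chr13:72628820-72634198 and Irx4 (ENSMUSG00000021604) at chr13:73260479-73269608, both on the plus strand. These 3 genes span 1.312 Mb. Irx3 (ENSMUSG00000031734) was at chr8:91798525-91802067 on the minus strand, Irx5 (ENSMUSG00000031737) at chr8:92357625-92376286 and Irx6 (ENSMUSG00000031738) at chr8:92674288-92680956, both on the plus strand, over 0.882 Mb. Antisense genes overlap Irx3 (Irx3os) and Irx6 (Gm45505) in the annotation. The library kit does not mark strand, so reads of these antisense RNAs could count towards Irx3 and Irx6.

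The 6 genes are close relatives, and the stretch below shows how far their coding sequences run together. It is the most alike ungapped run of 90 coding bases in an alignment of 1 GENCODE M21 transcript per gene, and it lies in 1 exon of each. Capitals mark a base unlike the most frequent one at that position. Where Irx1, Irx2 and Irx5 have T and the other genes have c, neither base was more frequent, and T was capitalized.
Irx1: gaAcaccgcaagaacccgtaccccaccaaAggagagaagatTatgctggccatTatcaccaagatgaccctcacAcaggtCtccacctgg
Irx2: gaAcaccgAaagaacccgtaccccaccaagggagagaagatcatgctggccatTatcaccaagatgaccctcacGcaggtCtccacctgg
Irx3: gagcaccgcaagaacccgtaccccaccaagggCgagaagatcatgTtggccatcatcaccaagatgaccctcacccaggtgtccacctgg
Irx4: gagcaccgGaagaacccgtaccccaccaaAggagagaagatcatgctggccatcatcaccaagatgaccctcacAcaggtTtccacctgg
Irx5: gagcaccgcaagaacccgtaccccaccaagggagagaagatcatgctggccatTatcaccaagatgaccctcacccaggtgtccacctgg
Irx6: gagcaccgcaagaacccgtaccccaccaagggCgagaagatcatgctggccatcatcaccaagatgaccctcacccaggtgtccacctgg
Of the 90 positions, 81 (90%) were the same in all 6 genes. The other 9 were 8 positions at the last base of a codon and 1 at its first base, and the 6 stretches encode 1 and the same series of 30 residues. Outside it the genes differ more. Identity over aligned coding bases was 60.7% for Irx2 and Irx5, 58.2% for Irx1 and Irx3 and 57.9% for Irx4 and Irx6, and it ran from 46.5% to 53.8% for the other 12 pairs. Those 3 closest pairs each join a gene of one cluster with a gene of the other. The longest run of identical bases shared by the transcripts of any pair was 23 to 88 bases, the longest in Irx3 and Irx6. Reads inside such runs could be assigned to either gene, while the rest of each transcript is distinct.

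Promoter sequences were available from RefSeq (GRCm38.p6) for Irx2, Irx3 and Irx4. Irx2 and Irx4 are shown because 250 and 232 bases of their windows lie upstream of the annotated exons. The Irx3 window, at chr8:91801655-91801904, lies inside the annotated Irx3 gene and is not printed, so its counts below are of sequence within the gene. The bases printed lie upstream of the annotated exons, 5′ to 3′ on the plus strand, for Irx2 at chr13:72628570-72628819 and for Irx4 at chr13:73260247-73260478, with CG dinucleotides in capitals.
Irx2: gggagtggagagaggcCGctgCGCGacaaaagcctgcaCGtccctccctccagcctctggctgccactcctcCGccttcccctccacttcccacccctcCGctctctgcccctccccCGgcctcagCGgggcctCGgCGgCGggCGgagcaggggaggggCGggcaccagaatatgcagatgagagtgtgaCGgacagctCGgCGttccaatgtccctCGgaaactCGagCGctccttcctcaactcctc
Irx4: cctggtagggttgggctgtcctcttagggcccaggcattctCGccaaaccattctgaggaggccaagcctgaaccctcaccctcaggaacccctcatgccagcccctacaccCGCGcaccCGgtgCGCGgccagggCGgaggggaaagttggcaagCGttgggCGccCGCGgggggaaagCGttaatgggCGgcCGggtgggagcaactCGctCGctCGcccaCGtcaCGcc
The 250 bases before the RefSeq start held 19 CG in Irx2, 13 in Irx3 and 22 in Irx4. As few or fewer were found in 82.1%, 70.6% and 86.7% of the same windows of all 32851 RefSeq promoters, whose median was 6. GGGCGG (the GC box, both strands) occurred 2 times in Irx2 and in Irx4 and 0 times in Irx3, against at least once in 32.7% of all promoters. CCAAT (both strands) occurred once in Irx2 alone of the 3, against 33.8% of promoters, and TATAAA (both strands) in none of the 3, against 12.4%.

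Some facts of the whole series bear on the values below. Eed, the gene the label names, had 376 to 644 FPKM in mESC labelled EED-/- against 66.2 to 163 in WT, and 171 to 202 in AntNPC labelled EED-/- against 42 to 63.4, so its FPKM go against the label. In the authors' deposited table its mean normalized read count runs the other way, from 3723.13 in WT AntNPC to 2495.77 in those labelled EED-/- (ratio 0.670, p listed as 0), in the direction of the label. The cause of this conflict was not tested. Where the mutation lies in the gene was not analysed here, and the groups are called as labelled. Replicate 1 of both AntNPC groups stood apart: across genes it correlated with replicates 2 to 4 at 0.956 to 0.964, while these correlated with each other at 0.996 to 0.997. Chromosome 8, which carries Irx3, Irx5 and Irx6, was higher as a whole in the libraries labelled EED-/-. The median log2 difference of its 513 genes of at least 5 FPKM was 0.40 in AntNPC and 0.66 in mESC, against -0.02 and 0.21 for other autosomes. For the 324 such genes of chromosome 13 it was -0.02 and 0.15. FPKM keep no read depth, so no counting interval is given.

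The order of levels was widest in WT AntNPC. Irx3 and Irx2 were the most abundant, at 13.8 ± 2.12 and 13.1 ± 1.88 FPKM (mean ± SD, n = 4), and did not differ beyond their spread. Irx5 followed at 8.80 ± 1.44 and Irx1 at 4.0 ± 0.390, each apart from its neighbours in every library. Irx4 was at 1.39 ± 0.728, and Irx6 never passed 0.0272. In WT mESC only Irx2 (1.13 and 2.28 FPKM) and Irx3 (0.233 and 1.14) reached 1 FPKM in any library, and their values overlapped. In mESC labelled EED-/- the order was Irx2, Irx3 and Irx4 at 3.12, 2.86 and 2.73, with overlapping ranges, then Irx5 and Irx1 at 0.485 and 0.419, also overlapping. In AntNPC labelled EED-/- Irx3 (10.1 ± 1.78) and Irx2 (8.63 ± 2.60) overlapped, Irx5 was at 4.86 ± 1.48, and Irx1 (2.36 ± 0.977) and Irx4 (2.15 ± 0.214) overlapped.

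**Figure D1:**
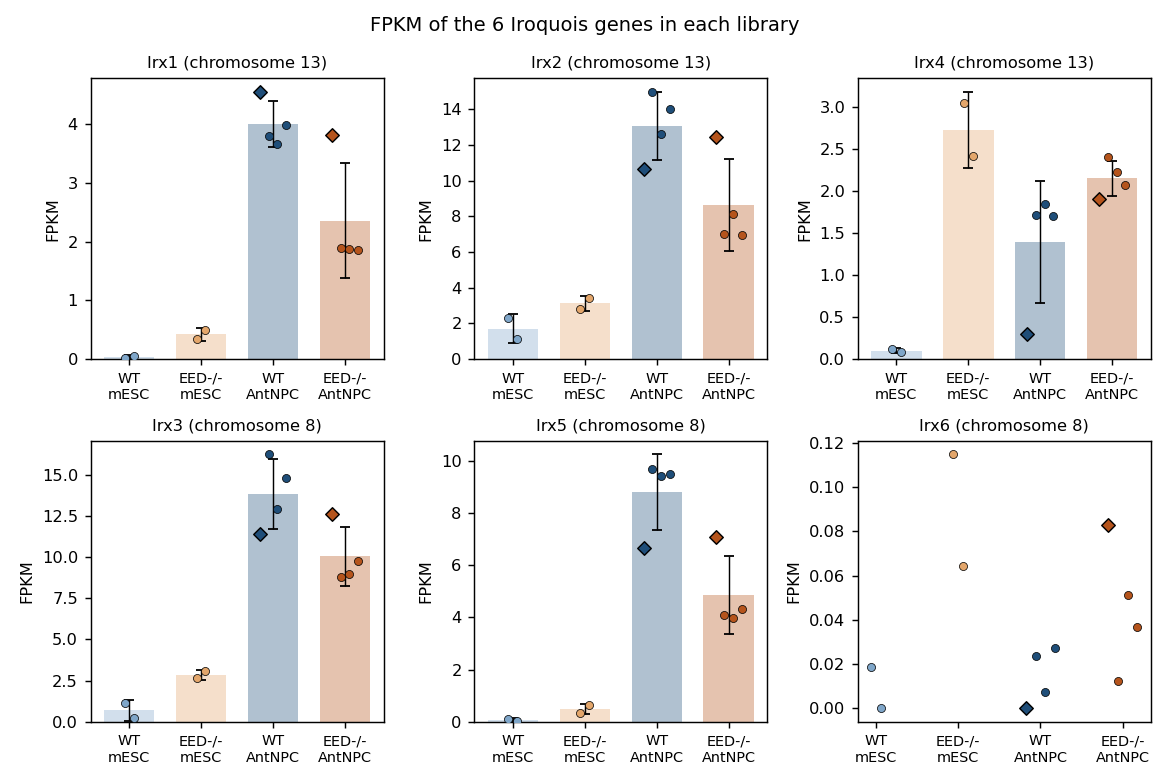
FPKM of each Iroquois gene by group, 1 panel per gene with its own axis. Points are libraries (diamonds, replicate 1 of the AntNPC groups), bars are group means and error bars SD (n = 2 in mESC, n = 4 in AntNPC), with points only for Irx6. All genes but Irx4 and Irx6 are highest in WT AntNPC, and Irx4 is highest in mESC labelled EED-/- (2.41 and 3.05).

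The comparison of AntNPC with mESC in the WT line shows which Iroquois genes come on with neural differentiation. All 5 tested members rose, and all their AntNPC libraries lay above the mESC libraries. Among all 13678 tested genes 30.1% rose in this comparison, and 35.4% had such non-overlapping groups. Irx1 and Irx5 passed the filter only through their AntNPC libraries, so a difference was built into their entry.

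Irx3, a neural tube patterning factor that also acts in the ventricular conduction system, went from 1.14 and 0.233 FPKM in WT mESC to 11.4, 16.2, 12.9 and 14.8 in replicates 1 to 4 of WT AntNPC. The log2 fold change on the log2(FPKM + 1) scale, used for every fold change here, was 3.18 ± 0.24 (SE; limma adjusted p = 1.88e-06). Irx5, which shapes the cardiac repolarization gradient and retinal bipolar cells, went from 0.123 and 0.0453 to 6.65, 9.67, 9.40 and 9.49 (3.16 ± 0.23, limma adjusted p = 1.31e-06). Irx2, linked to cerebellum formation, went from 2.28 and 1.13 to 10.6, 15.0, 12.6 and 14.0 (2.40 ± 0.26, limma adjusted p = 2.33e-05). Both mESC libraries of each gene were far below all 4 AntNPC libraries.

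Irx1, expressed in developing lung, heart and nervous system, went from 0.0227 and 0.0586 FPKM to 4.55, 3.80, 3.67 and 4.0 (2.26 ± 0.21, limma adjusted p = 8.8e-06). Irx4, best known from ventricular heart muscle, where it holds back atrial genes, showed the smallest rise on the log2(FPKM + 1) scale, which understates changes of low genes: from 0.119 and 0.0817 to 0.303, 1.71, 1.84 and 1.71 (1.05 ± 0.28, limma adjusted p = 0.00897). Its replicate 1 was much lower than the other 3. As a ratio of mean FPKM its rise was 13.9, above the 7.66 of Irx2, which was the smallest of the 5. The Irx4 call was lost with the replicate number as a block (0.91, limma adjusted p = 0.0548) and with each gene centred on the median of its chromosome (0.75, limma adjusted p = 0.0815). Irx6, expressed in retinal bipolar cells, stayed under 0.03 FPKM in both WT groups and was listed at 0 in 1 library of each.

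In the line labelled EED-/- the same comparison gave smaller differences. Irx1, Irx2, Irx3 and Irx5 rose, against 14.4% of all tested genes. Irx1 and Irx5 were under 1 FPKM in these mESC too and passed the filter only through AntNPC libraries. A difference was thus built into their entry here as well. Irx5 went from 0.345 and 0.626 FPKM in mESC to 7.07, 4.10, 3.96 and 4.30 in AntNPC (1.96 ± 0.23, limma adjusted p = 0.000103). Irx3 went from 2.65 and 3.07 to 12.7, 8.79, 9.0 and 9.78 (1.51 ± 0.24, limma adjusted p = 0.000844). In both genes all AntNPC libraries were above both mESC libraries, as for 27.5% of all tested genes.

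Irx1 went from 0.346 and 0.493 to 3.83, 1.89, 1.87 and 1.86 (1.21 ± 0.21, limma adjusted p = 0.00152). Irx2 went from 2.81 and 3.43 to 12.4, 7.0, 8.12 and 6.95 (1.19 ± 0.26, limma adjusted p = 0.00519), a call that was lost without replicate 1 of the mESC labelled EED-/- (limma adjusted p = 0.0518). Irx4 had 3.05 and 2.41 in mESC against 1.90, 2.40, 2.23 and 2.07 in AntNPC, with all AntNPC libraries below the mESC ones (as for 27.7% of all tested genes), and did not pass (-0.24 ± 0.28, limma adjusted p = 0.529). Irx4 was thus already as high in mESC labelled EED-/- as in any AntNPC library.

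**Figure D2:**
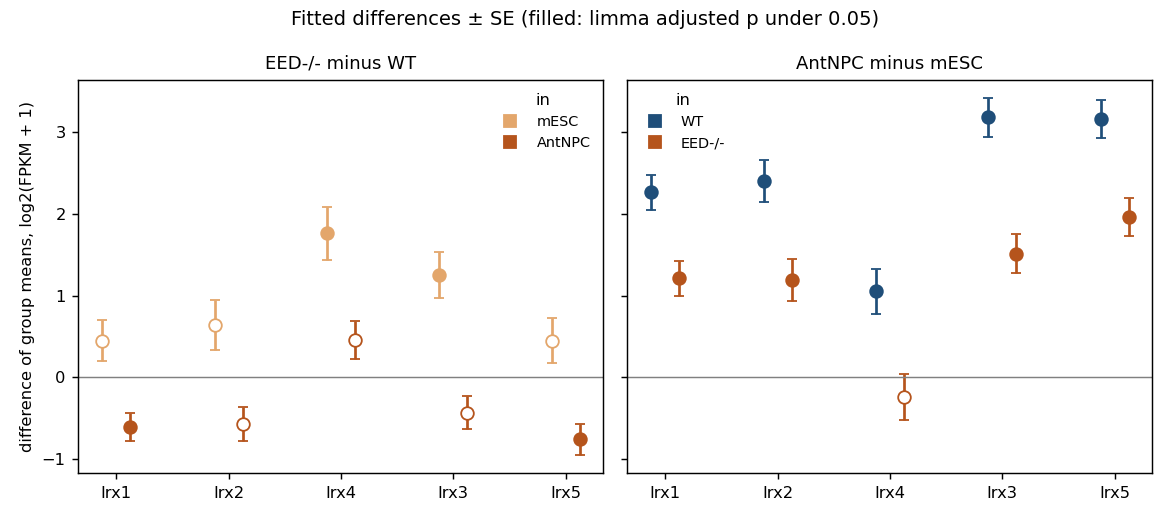
Fitted differences of group means on the log2(FPKM + 1) scale with their SE for the 5 tested genes. Left, libraries labelled EED-/- minus WT in mESC and in AntNPC. Right, AntNPC minus mESC in each genotype. Filled points passed a limma adjusted p under 0.05. All 5 genes are above 0 in mESC, while Irx1, Irx2, Irx3 and Irx5 are below 0 in AntNPC.

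The comparison of genotypes in mESC asks which genes differ between the lines before differentiation. Irx3 and Irx4 rose, 2 of the 5 tested members, against 20% of all tested genes. Irx4 went from 0.119 and 0.0817 FPKM in WT to 3.05 and 2.41 (1.76 ± 0.32, limma adjusted p = 0.00249). Irx3 went from 1.14 and 0.233 to 2.65 and 3.07 (1.25 ± 0.28, limma adjusted p = 0.0087). Both libraries labelled EED-/- were above both WT libraries for Irx3 and Irx4.

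The other members moved in the same direction without passing the test. Irx2 had 2.28 and 1.13 FPKM in WT against 2.81 and 3.43 (0.64 ± 0.30, limma adjusted p = 0.163). Irx1 had 0.0227 and 0.0586 against 0.346 and 0.493 (0.45 ± 0.25, limma adjusted p = 0.239), and Irx5 had 0.123 and 0.0453 against 0.345 and 0.626 (0.45 ± 0.27, limma adjusted p = 0.278). Irx6 had 0.0188 and 0 against 0.115 and 0.0642 and was not tested. In all 6 members the libraries labelled EED-/- lay above the WT libraries without overlap, as did 33.2% of all tested genes.

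The mESC libraries labelled EED-/- were higher for most genes. The median log2 fold change over all tested genes was 0.29, and quantile normalization moved it to -0.05. Under that scaling Irx4 was at 1.34 (limma adjusted p = 0.0221), Irx3 at 0.76 (limma adjusted p = 0.063), and Irx1, Irx2 and Irx5 at 0.09, 0.03 and 0.04. Relative to the median of chromosome 8, Irx3 was at 0.52 (limma adjusted p = 0.244) and Irx5 at -0.28. Irx4, relative to chromosome 13, stayed at 1.57 (limma adjusted p = 0.0174). The chromosome median came from genes of at least 5 FPKM, while Irx5 was under 1 FPKM, where log2(FPKM + 1) understates changes. The Irx5 value is thus not a fall, and its ratio of mean FPKM to WT was 5.76. With a pseudocount of 0.1 in place of 1, which weighs low values more, Irx1, Irx3, Irx4 and Irx5 passed, where 21% of all tested genes rose. With the 4 mESC libraries alone neither Irx3 (limma adjusted p = 0.285) nor Irx4 (limma adjusted p = 0.104) did.

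Markers of several other cell types were also higher in mESC labelled EED-/-, while the neuron sum, mostly Stmn2, was lower. The summed FPKM of 7 trophoblast markers was 106 to 203 against 5.91 to 10.8 in WT, of 6 endoderm markers 28.9 to 37.0 against 0.930 to 4.48, of 6 cardiac markers 36.8 to 66.2 against 10.7 to 31.5, and of 7 surface ectoderm markers 426 to 1237 against 34.8 to 45.2. Of these lists 4 of 6 tested trophoblast, 4 of 6 endoderm, 5 of 6 cardiac and 3 of 5 surface ectoderm markers rose and none fell, where 20% of all tested genes rose and 2.73% fell. In mESC labelled EED-/- most of 3 of these sums came from 1 gene each. These were Hand1 of the trophoblast list (75.2 to 169), Myl7 of the cardiac list (25.3 to 48.5) and Krt18 of the surface ectoderm list (381 to 1198). The surface ectoderm markers Krt5 and Trp63 did not pass 1.07 and 0.105 there. The mesoderm sum was 6.82 to 7.07 against 3.49 to 4.71 in WT (1 of 3 tested rose). The neural progenitor sums overlapped, at 94.1 to 153 against 119 to 139 (2 of 6 rose), and so did the neural crest sums, at 19.8 to 20.7 against 5.54 to 33.1 (2 of 5 tested rose). The neuron sum was 73.8 to 92.1 against 134 to 304, and 1 of 4 tested neuron markers fell while none rose. Most of that sum was Stmn2, at 67.0 to 88.2 against 127 to 303 in WT. Map2, Elavl3 and Rbfox3 overlapped between genotypes, and Dcx was at 0.0106 to 0.0110 against 0 in WT. In WT mESC 1 neuron marker was at 0 in all libraries. No marker of the trophoblast, endoderm, cardiac and surface ectoderm lists was at 0 in all libraries of either mESC group. The summed mESC markers were 1057 to 2221 in WT and 1137 to 1358 in those labelled EED-/-. In bulk RNA more cells of a type and more RNA per cell cannot be told apart, and the part of such cells in the Iroquois values was not tested.

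The comparison of genotypes in AntNPC gave lower values for Irx1, Irx2, Irx3 and Irx5 and higher values for Irx4. Irx1 and Irx5 fell, 2 of the 5 tested members, against 7.75% of all tested genes. Irx5 had 6.65, 9.67, 9.40 and 9.49 FPKM in WT against 7.07, 4.10, 3.96 and 4.30 (-0.76 ± 0.19, limma adjusted p = 0.0112). Irx1 had 4.55, 3.80, 3.67 and 4.0 against 3.83, 1.89, 1.87 and 1.86 (-0.61 ± 0.17, limma adjusted p = 0.0233). In both genes replicate 1 of the libraries labelled EED-/- lay within or close to the WT range, and the other 3 lay well below it.

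Irx2 had 10.6, 15.0, 12.6 and 14.0 FPKM in WT against 12.4, 7.0, 8.12 and 6.95 (-0.57 ± 0.21, limma adjusted p = 0.0708). Irx3 had 11.4, 16.2, 12.9 and 14.8 against 12.7, 8.79, 9.0 and 9.78 (-0.43 ± 0.20, limma adjusted p = 0.151). Their groups overlapped only through replicate 1. Irx4 had 0.303, 1.71, 1.84 and 1.71 against 1.90, 2.40, 2.23 and 2.07 (0.46 ± 0.23, limma adjusted p = 0.172), with no overlap, as for 30.4% of all tested genes. The Irx6 values of 0, 0.0236, 0.00735 and 0.0272 against 0.0829, 0.0123, 0.0511 and 0.0367 overlapped.

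Replicate 1 and replicates 2 to 4 of AntNPC gave different genotype ratios. In replicate 1 the ratio of the library labelled EED-/- to WT was 0.840 for Irx1, 1.17 for Irx2, 1.11 for Irx3 and 1.06 for Irx5. In replicates 2 to 4 it was 0.465 to 0.510 for Irx1, 0.467 to 0.643 for Irx2, 0.541 to 0.697 for Irx3 and 0.421 to 0.453 for Irx5. For Irx4 the ratio was 6.28 in replicate 1 and 1.21 to 1.40 in the other 3.

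**Figure D3:**
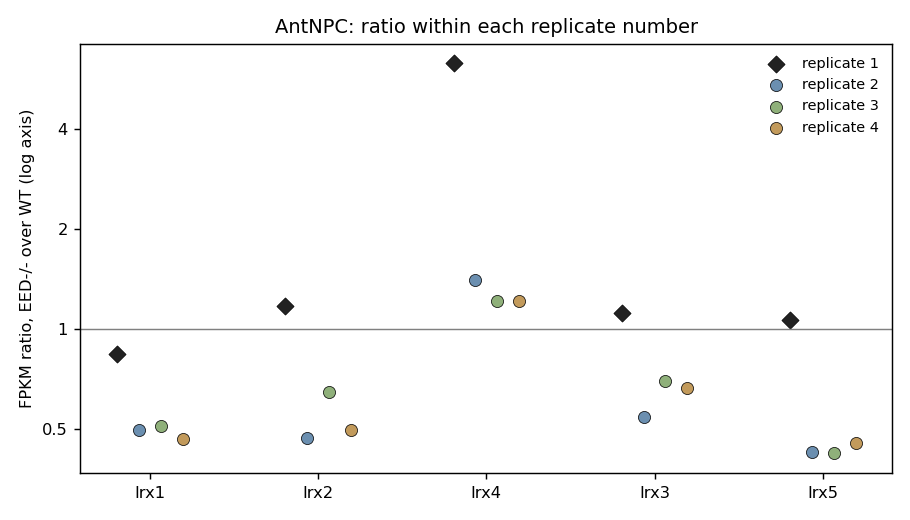
Ratio of FPKM in the library labelled EED-/- to FPKM in the WT library of the same replicate number, AntNPC, log axis, 1 point per replicate and gene. Replicate 1 (diamonds) lies above replicates 2 to 4 for each of the 5 genes, at 1.06 to 1.17 for Irx2, Irx3 and Irx5.

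Without replicate 1 of both AntNPC groups, 3 of the 5 tested members fell, against 6.84% of all tested genes in the same fit. Irx5 was at 9.52 ± 0.136 FPKM in WT against 4.12 ± 0.172 (mean ± SD, n = 3; -1.04, limma adjusted p = 0.000468). Irx1 was at 3.82 ± 0.163 against 1.87 ± 0.0149 (-0.75, limma adjusted p = 0.000801), and Irx2 at 13.9 ± 1.18 against 7.36 ± 0.660 (-0.83, limma adjusted p = 0.0129). Irx3 was at 14.6 ± 1.67 against 9.19 ± 0.524 and missed the threshold (-0.61, limma adjusted p = 0.0738). Irx4 was at 1.75 ± 0.0752 against 2.23 ± 0.167 (0.23, limma adjusted p = 0.205). Within replicates 2 to 4, Irx1, Irx2, Irx3 and Irx5 did not overlap between genotypes. The share of all tested genes for which this held was not computed, so it is not read as a trait of these genes.

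The calls with all libraries were close to the threshold. With the replicate number as a block Irx1 (limma adjusted p = 0.0514) and Irx5 (limma adjusted p = 0.0547) missed it, and in a block fit of the AntNPC libraries alone, chosen after seeing the data, both passed (limma adjusted p = 0.0077 and 0.0242), as 22.3% of all tested genes fell in that fit. Irx1 also missed it without replicate 1 or 4 of WT AntNPC, or without replicate 2, 3 or 4 of those labelled EED-/- (limma adjusted p = 0.056 to 0.0765). Without either WT mESC library, which does not itself enter this comparison, Irx1, Irx2, Irx3 and Irx5 all passed, where 12.2% of all tested genes fell in either fit.

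For the chromosome 8 genes the difference from their chromosome was larger than the difference itself. Relative to the chromosome median, Irx5 was at -1.11 (limma adjusted p = 0.00102) and Irx3 at -0.78 (limma adjusted p = 0.0112), so that Irx3 passed as well, where 7.55% of all tested genes fell. For Irx1 and Irx2 on chromosome 13 the values moved little, to -0.55 (limma adjusted p = 0.0297) and -0.51 (limma adjusted p = 0.0755).

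The authors' deposited table gives its own comparison of the AntNPC groups, as mean normalized read counts. In the authors' deposited table Irx5 went from 988.4 to 494.82, a ratio of 0.501, and Irx1 from 429.25 to 236.09, a ratio of 0.550. Irx2 went from 1254.9 to 739.15 (ratio 0.589) and Irx3 from 1475.56 to 998.05 (ratio 0.676) in the authors' deposited table. The p-values in the authors' deposited table are listed as 0 for Irx2 and Irx5, 3.5e-05 for Irx3 and 9.9e-05 for Irx1. Irx4 went from 165.84 to 228.17 with p = 0.25374, and Irx6 from 1.78 to 5.12 with p = 0.060086, in the authors' deposited table. The submitters' processing notes name DESeq2 for 8 of the 12 libraries, which leave out replicate 1 of each group. For each of the 6 genes the authors' means and the mean FPKM differed in the same direction.

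Cell identity markers moved in the AntNPC comparison as well. The summed FPKM of 6 neural progenitor markers was 322 to 425 in WT AntNPC against 136 to 169 in those labelled EED-/-, and 3 of the 6 fell, where 7.75% of all tested genes fell and 18.3% rose. All 6 mESC markers rose, with sums of 20.1 to 58.5 against 123 to 183. Trophoblast markers summed to 0.733 to 1.29 against 13.8 to 23.7 (5 of 6 tested rose), cardiac markers to 0.497 to 1.59 against 9.62 to 12.5 (5 of 6), and surface ectoderm markers to 23.9 to 27.3 against 148 to 235 (4 of 5). Most of the surface ectoderm sum was Krt18 (20.6 to 23.8 against 124 to 211). Of 7 mesoderm markers 3 were tested and rose, with sums of 2.02 to 6.64 against 23.1 to 24.9. Of 6 endoderm markers 5 rose and 1 fell, and the sums overlapped, at 27.3 to 33.3 against 21.6 to 39.4. The 1 that fell, Cxcr4 (26.7 to 32.6 against 2.66 to 5.53), made up most of the WT sum. Of 6 neural crest markers 3 of 5 tested rose (10.1 to 14.6 against 28.3 to 32.3), and of 5 neuron markers 1 of 4 tested rose and 2 fell (48.3 to 57.9 against 64.0 to 91.4). The higher neuron sum came from Stmn2 (19.6 to 24.2 against 52.2 to 81.0), which was highest in WT mESC. Map2 (17.4 to 29.8 against 6.92 to 8.57) and Rbfox3 (4.22 to 6.06 against 1.39 to 2.22) were lower in AntNPC labelled EED-/-. In WT AntNPC 1 surface ectoderm marker was at 0 in all libraries. The part of these other cell types in the Iroquois values was not tested.

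The interaction asks whether the change from mESC to AntNPC differed between the lines, and it uses the same libraries as the comparisons above. It was below 0 for each of the 5 tested members, and each passed, against 11.3% of all tested genes. The difference of the genotype contrasts was -1.67 ± 0.34 for Irx3 (limma adjusted p = 0.00824), -1.29 ± 0.39 for Irx4 (limma adjusted p = 0.0475), -1.21 ± 0.33 for Irx5 (limma adjusted p = 0.0298), -1.21 ± 0.37 for Irx2 (limma adjusted p = 0.048) and -1.06 ± 0.30 for Irx1 (limma adjusted p = 0.0378). The median over all tested genes was -0.20. For Irx1, Irx2, Irx3 and Irx5 both ends of the change were closer together in group means in the line labelled EED-/-, with higher values in mESC and lower values in AntNPC. Not every end passed by itself: Irx1, Irx2 and Irx5 did not in mESC, nor Irx2 and Irx3 in AntNPC. Under quantile normalization the mESC end of Irx1, Irx2 and Irx5 was at 0.09, 0.03 and 0.04. In replicate 1 of AntNPC, Irx2, Irx3 and Irx5 were not lower. For Irx4 the mESC end alone was far apart.

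Irx3 kept its interaction when any single library was left out, while such fits left 1 to 4 of the 5 members called. With the replicate block and with chromosome centring Irx3 was the 1 member called (limma adjusted p = 0.0467 and 0.0259). Quantile normalization also left Irx3 alone (limma adjusted p = 0.0236), and moved the median over all genes from -0.20 to 0.01. With FPKM scaled to the same sum Irx3 missed the threshold too (-1.86, limma adjusted p = 0.0752). Among all 13678 tested genes, calls below 0 went from 1541 to 841 with quantile normalization, 825 with centring and 774 scaled to the same sum. For the block and for single libraries left out no such number is given. Those counts of members are thus not read as a trait of these genes.

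The clusters can be compared by the summed FPKM of their members, given as a description without a test. The Irx1, Irx2 and Irx4 cluster summed to 2.42 and 1.27 in WT mESC, 6.21 and 6.33 in the mESC labelled EED-/-, 15.5 to 20.5 in WT AntNPC and 10.9 to 18.2 in those labelled EED-/-. The Irx3, Irx5 and Irx6 cluster summed to 1.28 and 0.278, 3.10 and 3.76, 18.0 to 25.9 and 12.9 to 19.8 in the same order. The chromosome 8 cluster was thus the lower of the 2 in each mESC library and the higher in each AntNPC library. Its ratio to the chromosome 13 cluster was 0.527 and 0.219 in WT mESC, 0.50 and 0.593 in the mESC labelled EED-/-, 1.22 ± 0.0428 in WT AntNPC and 1.15 ± 0.105 in those labelled EED-/- (mean ± SD, n = 4). The last of these ran from 1.06 to 1.30. In the libraries labelled EED-/- chromosome 8 as a whole was higher than other autosomes, by a median log2 difference of 0.42 in AntNPC and 0.45 in mESC. The sums and ratios are not corrected for this, and its part in them was not tested. Taking the mean of log2(FPKM + 1) over the 3 members in place of the sum gave Irx6 equal weight. The AntNPC difference was then -0.05 in WT and -0.19 in those labelled EED-/-, so the higher place of the chromosome 8 cluster in AntNPC rests on summing FPKM.

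**Figure D4:**
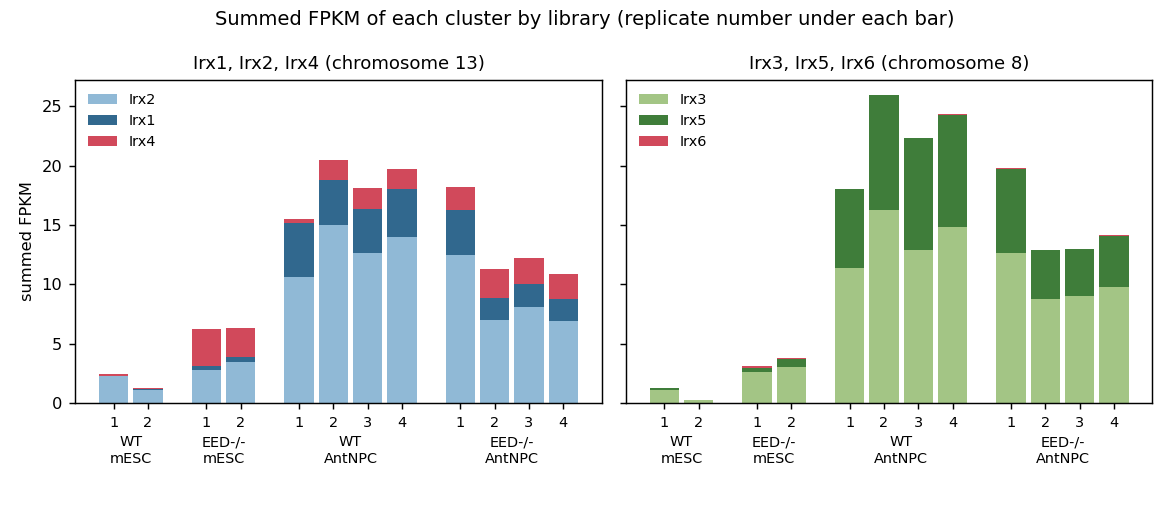
Summed FPKM of the chromosome 13 cluster (left) and the chromosome 8 cluster (right) in each library, split by member, with the replicate number under each bar. Irx4 makes up 38.1% and 49.1% of the left sum in mESC labelled EED-/-, and Irx6 is too low to be seen in most bars.

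Within each cluster the shares shifted with the group. Irx2 made up 91.6% of its cluster in WT mESC, 49.7% in mESC labelled EED-/-, 70.6% in WT AntNPC and 65.2% in those labelled EED-/- (means over libraries). The Irx4 share was 4.91% and 6.42% in WT mESC, 49.1% and 38.1% in the mESC labelled EED-/-, 1.95% to 10.1% in WT AntNPC and 10.5% to 21.3% in those labelled EED-/-. Its lowest AntNPC values were both in replicate 1. On chromosome 8 the Irx5 share of the sum was 9.65% and 16.3% in WT mESC, 11.1% and 16.6% in the mESC labelled EED-/-, 36.9% to 42.1% in WT AntNPC and 30.4% to 35.7% in those labelled EED-/-. The ratio of Irx5 to Irx3 was 0.637 ± 0.0656 in WT AntNPC and 0.476 ± 0.0564 in those labelled EED-/- (mean ± SD, n = 4), with ranges of 0.584 to 0.728 and 0.440 to 0.559. Across clusters, Irx3 and Irx2 stayed at a ratio of 1.02 to 1.08 in the 4 WT AntNPC libraries, and of 1.02 to 1.41 in those labelled EED-/-.

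The likeness of patterns was described by Pearson's r of log2(FPKM + 1) over the 12 libraries, which fall in 4 groups, so most of r reflects group means. Among Irx1, Irx2, Irx3 and Irx5 it was 0.951 to 0.983 in every pair, within and across the clusters. Irx4 had r of 0.268 with Irx1, 0.320 with Irx5, 0.382 with Irx2 and 0.495 with Irx3. The genes most like Irx5 were Dtx4 (0.997), Zfp113 (0.992), Plch1 (0.990), Greb1 (0.989) and Sp8 (0.988). Those most like Irx3 were Lman2l (0.993), Tspan6 (0.986), Zfp113 (0.985), Tmem164 (0.985) and Phldb1 (0.984). Irx2 was most like Zfp113 (0.989), Irx5 (0.983), Dtx4 (0.983), Irx3 (0.982) and Pik3r3 (0.979), and Irx1 most like Rtn4rl2 (0.988), Tspan5 (0.986), Cadm3 (0.985), Ror1 (0.985) and Irx5 (0.983). For Irx4 the 5 nearest were Sh3bp4 (0.952), Rassf8 (0.940), Tdrkh (0.934), Leprel4 (0.931) and Akt1 (0.924). No Iroquois gene was among the 5 nearest of Irx3, Irx4 or Irx5.

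The genes around the clusters are given beside the members as values, and no test of neighbours against members was run. Of 19 genes of the table within 1 Mb of the Irx1, Irx2 and Irx4 cluster, 14 were tested, 1 rose in each genotype comparison, against 20% of all tested genes in mESC and 18.3% in AntNPC, and none lay between the members. Lpcat1, a lysophosphatidylcholine acyltransferase, rose in mESC from 13.1 and 15.8 FPKM to 27.5 and 31.5 (0.98 ± 0.15, limma adjusted p = 0.000872). Tppp, which promotes tubulin polymerization, rose in AntNPC from 0.404 to 0.607 in WT to 1.41 to 1.92 (0.83 ± 0.11, limma adjusted p = 0.000212). The median of the 14 was 0.35 in mESC and 0.01 in AntNPC, against 0.29 and 0.05 for all tested genes.

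Of 19 genes within 1 Mb of the Irx3, Irx5 and Irx6 cluster 8 were tested, and 2 rose in each genotype comparison, a share near those of all tested genes. Fto, an RNA demethylase whose introns are known to contact the Irx3 promoter, rose in mESC (13.2 and 20.1 FPKM against 26.1 and 38.8; 0.92 ± 0.22, limma adjusted p = 0.0125). In AntNPC Fto had 36 to 44.8 against 42 to 45.1 (0.16, limma adjusted p = 0.529). Lpcat2, a relative of Lpcat1, rose in mESC (0.71 ± 0.23, limma adjusted p = 0.046) and in AntNPC (0.89 ± 0.16, limma adjusted p = 0.0017), and Aktip rose in AntNPC (0.66 ± 0.17, limma adjusted p = 0.0124). Chd9 in AntNPC (0.79, limma adjusted p = 0.128) and Rbl2 in mESC (-0.99, limma adjusted p = 0.399) did not pass. The median of the 8 was 0.56 in mESC and 0.34 in AntNPC, near the 0.66 and 0.40 of chromosome 8. Irx3 and Irx5 at -0.43 and -0.76 in AntNPC were lower than each of these 8 neighbours.

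**Figure D5:**
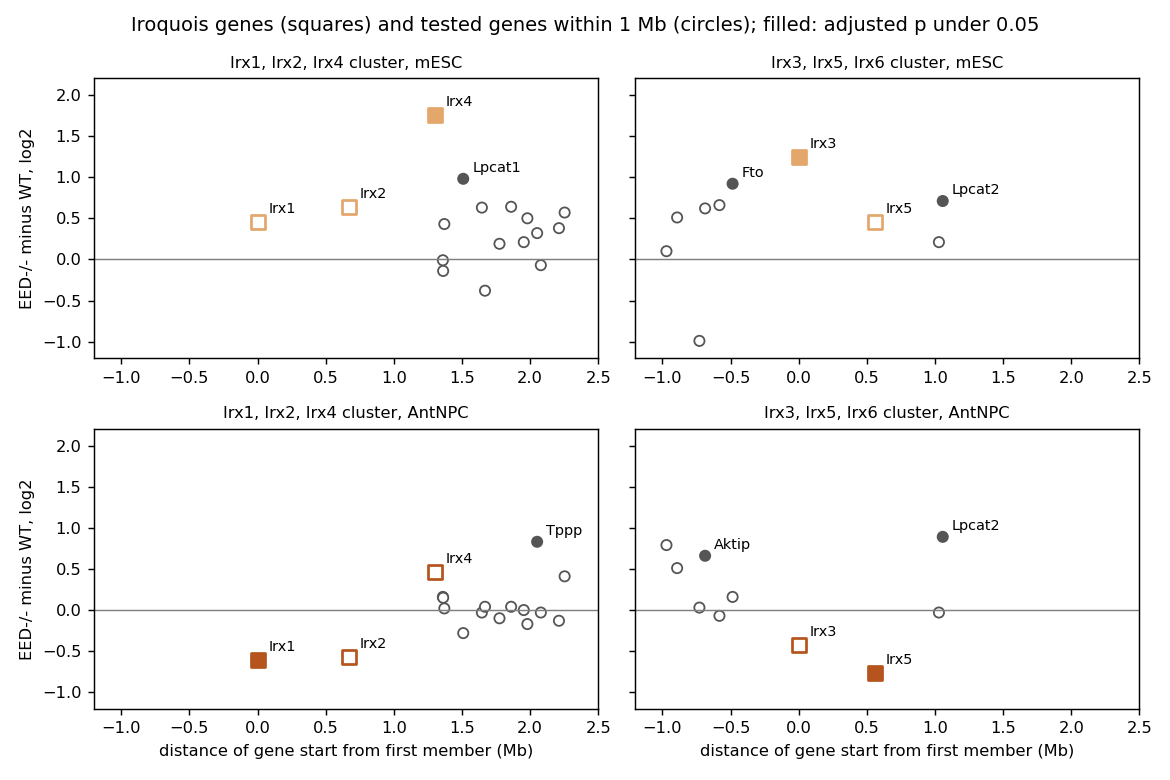
Log2 fold change of the libraries labelled EED-/- against WT for the Iroquois genes (squares) and the other tested genes within 1 Mb of each cluster (circles), by distance of the gene start from that of the first member. Filled symbols passed a limma adjusted p under 0.05. In AntNPC the squares of Irx1, Irx2, Irx3 and Irx5 are the lowest points of their panels.

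Among 30 genes that pattern the neural tube with or against Iroquois genes, 25 were tested. In WT differentiation 18 rose and 2 fell, where 30.1% and 18.1% of all tested genes did, with a median log2 fold change of 2.53 against 0.17 for all. In AntNPC labelled EED-/- 11 fell and 3 rose against WT (median -0.64 against 0.05), where 7.75% and 18.3% of all tested genes did. The lowest adjusted p among those that fell were of Wnt8b, a forebrain WNT ligand (8.72 to 11.4 FPKM in WT against 0.128 to 0.731; -3.16 ± 0.15, limma adjusted p = 3.91e-07), and Fezf1, a forebrain transcription factor (20.2 to 23.2 against 1.76 to 3.08; -2.80 ± 0.15, limma adjusted p = 5.8e-07). Pax2, of the midbrain-hindbrain boundary and optic stalk, went from 27.3 to 41.3 in WT to 0.970 to 4.02 (-3.75 ± 0.27, limma adjusted p = 3.41e-06). Those that rose included Pax3 of the dorsal neural tube (0.471 to 1.80 against 4.40 to 6.69) and Nkx6-2 of the ventral neural tube (0.367 to 0.543 against 1.05 to 1.43). The Irx5 and Irx1 differences of -0.76 and -0.61 lie near the median of -0.64 of the 25 patterning genes. Wnt8b, Fezf1 and Pax2 were picked by their adjusted p, so their larger differences do not stand for the list.

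In mESC 3 of the 25 patterning genes rose, against 20% of all tested genes, among them Neurog1, a proneural factor (1.20 ± 0.14, limma adjusted p = 0.000144), and En2 of the midbrain-hindbrain (1.61 ± 0.29, limma adjusted p = 0.00256). In the line labelled EED-/-, 13 rose and 3 fell with differentiation, where 14.4% and 16.7% of all tested genes did. The interaction was called for 9, all below 0, where 11.3% of all tested genes were called below 0, led by Wnt8b (-3.21), Fezf1 (-2.97) and En1 (-4.16), with a median of -1.05 against -0.20 for all tested genes.

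All 12 TALE relatives of the Iroquois genes (Mkx and the Meis, Pbx, Pknox and Tgif genes) were tested. In WT differentiation 7 rose and 1 fell, where 30.1% and 18.1% of all tested genes did. The same counts were found in the line labelled EED-/-, where 14.4% and 16.7% did. Between genotypes in AntNPC, Meis1 (1.02 to 3.86 FPKM in WT against 8.04 to 12.6), Meis2 (9.91 to 15.1 against 23.6 to 41.1) and Pknox1 (1.93 to 3.56 against 6.0 to 7.31) rose. Pbx2 (65.1 to 82.4 against 43.7 to 53.2) and Pknox2 (19.3 to 27.1 against 13.5 to 16.3) fell, 3 up and 2 down of the 12, against 18.3% and 7.75% of all tested genes. These factors bind DNA together with other homeodomain proteins. In mESC 5 of the 12 rose, against 20% of all tested genes, led by Meis3 (2.11 ± 0.33, limma adjusted p = 0.000914), Meis2 (2.10 ± 0.38, limma adjusted p = 0.00238) and Pbx3 (0.91 ± 0.24, limma adjusted p = 0.0194).

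Of 20 heart, limb and mesoderm genes that Iroquois factors work with in other tissues, 15 were tested. In AntNPC 10 rose and 2 fell (median 1.41 against 0.05 for all tested genes), where 18.3% and 7.75% of all tested genes did. In mESC 8 rose (median 1.01 against 0.29), where 20% of all tested genes did. Gata4, a heart and endoderm factor, had 0.245 to 0.517 FPKM in WT AntNPC against 8.51 to 12.1 (3.09 ± 0.17, limma adjusted p = 7.33e-07). Tbx5, of the heart and forelimb, had 0.0115 to 0.0422 against 1.11 to 1.62, and Isl1, of the second heart field and motor neurons, 0.0855 to 0.185 against 3.19 to 5.07. Sox9 (17.4 to 26.1 against 4.06 to 5.03) and Gli3 (22.7 to 25.2 against 7.47 to 12.8), both also expressed in neural progenitors, fell. In mESC the lowest adjusted p were of Hand1 (0.316 and 0.346 against 75.2 and 169), Gata4 (0.416 and 1.27 against 13.7 and 14.0) and Nkx2-5 (0.229 and 0.351 against 3.68 and 6.63). Irx4, the Iroquois gene of ventricular muscle, was the member with the largest difference in mESC, at 1.76.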

How the data were processed

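Polyadenylated RNA of 12 libraries was sequenced after TruSeq v2 library preparation, per the labels' protocols. The authors deposited 1 table of 21253 genes with FPKM per library, made with TopHat2 and Cufflinks on GRCm38 (mm10), per the submitters' processing notes. The header does not name the unit, which was taken from these notes and from the values. The sources used here give no tool versions or annotation. The authors' mean normalized read count per AntNPC group (a signal that is not whole) and p-value were also deposited, and whether that p-value is adjusted is not stated. Columns were matched to samples by name, 0 per-sample columns were left unused, and a title without a number was taken as replicate 1. Depth is unknown. The sum of FPKM per library ran from 453550 to 864235. Both of these are WT mESC, replicates 1 and 2, and mESC labelled EED-/- had 788753 and 475689 in replicates 1 and 2. The AntNPC libraries ran from 455577 to 542958.

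The scale was log2(FPKM + 1), on which changes of low genes are understated. Genes reaching 1 FPKM in 2 or more libraries (13678) entered a limma 3.58.1 fit (limma-trend, R 4.3.3) of the 4 groups, with 8 residual degrees of freedom and 2.93 from the prior. The 5 comparisons were tested on both sides, each with its own Benjamini-Hochberg adjustment and a threshold of 0.05. "Rose" and "fell" mean an adjusted p under it. The fit was tested on simulated data. Tables and figures were made with Python 3.11.15.

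The members, gene lists, markers and the rule for named genes were chosen with earlier results of these data known. The rule took all members, up to 3 genes per list, comparison and direction by adjusted p, of which a part is printed and 1 gene is not reported here, all neighbours within 1 Mb passing a genotype comparison, the 5 genes most like each tested member (of at least 5 FPKM in 1 library), and Eed. Positions are from GENCODE M21, which held 21149 of the genes, and promoters from RefSeq.

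The main fit did not pair replicates, and only the replicate block took same-numbered replicates as paired. The block was run because deviations from the group means of same-numbered AntNPC libraries correlated across genes at 0.318 to 0.562 in each of the 4 pairs. Replicates 2 to 4 also correlated across numbers at 0.332 to 0.404, so the pairing rests mainly on replicate 1. Same-numbered mESC libraries correlated at -0.67, so the numbers give no sign of pairs in mESC. Alternatives were the pseudocount, filters, scalings, centring by chromosome, a replicate block, fewer groups, and leaving out libraries.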

Additional observations from a re-analysis of the deposited data

Results flagged for a closer look

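In a group of 4 libraries, 1 library was marked as far from the others when its gap to the nearest was most of the group's range, which chance gives in about 1 in 20 groups. Of 12 groups (6 genes in WT AntNPC and in AntNPC labelled EED-/-) 4 were marked, and all 4 by replicate 1. Irx1 was at 3.83 FPKM in replicate 1 of AntNPC labelled EED-/-, against 1.86 to 1.89 in the others. Irx4 was at 0.303 in replicate 1 of WT AntNPC, against 1.71 to 1.84. Irx5 was at 6.65 in replicate 1 of WT AntNPC, against 9.40 to 9.67, and at 7.07 in replicate 1 of AntNPC labelled EED-/-, against 3.96 to 4.30. Thus Irx5 was lower than the others in WT and higher than the others in the libraries labelled EED-/-.

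The genotype differences in AntNPC and in mESC differed from each other by the interaction test. The difference of log2 fold changes was -1.06 for Irx1 (limma adjusted p = 0.0378), -1.21 for Irx2 (limma adjusted p = 0.048), -1.67 for Irx3 (limma adjusted p = 0.00824), -1.29 for Irx4 (limma adjusted p = 0.0475) and -1.21 for Irx5 (limma adjusted p = 0.0298).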

How the results depend on the processing

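Of 550 refitted values of single members, 459 kept their direction and side of the threshold, 76 lost the call, 14 gained it and 1 changed sign. That was Irx5 in mESC, at -0.28 with chromosome centring, although its FPKM were higher in the libraries labelled EED-/-. Most of the lost calls were calls of the interaction. The counts of members called in WT differentiation (5) and in that of the line labelled EED-/- (4) stayed within 1.5 times under every setting run. In AntNPC the count between genotypes was 2. It was 0 with FPKM scaled to the same sum and 0 with the replicate block (limma, 2 with unadjusted p under 0.05 in each), 4 with the AntNPC libraries alone, and 1 to 4 when single libraries were left out. In mESC the count was 2, and it was 4 with a pseudocount of 0.1, 1 with quantile normalization, 1 scaled to the same sum, 1 with chromosome centring (Irx4 in each of these 3), and 0 with the mESC libraries alone (limma, 3 with unadjusted p under 0.05). For the interaction the count was 5. It was 3 with no filter, 3 with the filter at 4 libraries, 1 with quantile normalization, 0 scaled to the same sum (limma, 4 with unadjusted p under 0.05), 1 with chromosome centring, 1 with the replicate block and 1 to 4 when single libraries were left out. The mESC numbers correlated at -0.67, and the block with them crossed, chosen after seeing the data, gave 2 in AntNPC, 2 in mESC and 3 for the interaction. The block changed no other call than those given here and in the results. The calls among all 13678 tested genes moved too. Scaled to the same sum, those that fell in AntNPC went from 1060 to 655. Those that rose in mESC went from 2732 to 1216 with quantile normalization, 1763 scaled to the same sum and 1398 with centring. Interactions below 0 went from 1541 to 841, 774 and 825 in the same order. For the other refits no share is given here, so their member counts are not read as a trait of these genes.

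The log2 ratio of the cluster sums was -1.56 in WT mESC, -0.88 in mESC labelled EED-/-, 0.29 in WT AntNPC and 0.20 in those labelled EED-/-, and with the mean of log2 values it was -0.26, -0.60, -0.05 and -0.19. Quantile normalization moved the share of genes that rose among all those called from 70.3% to 50.0% in AntNPC, from 88.0% to 52.2% in mESC and from 26.1% to 46.6% in the interaction. Chromosome centring moved it to 66.4% in mESC and 51.9% in the interaction, and from 62.5% to 48.3% in WT differentiation. The median log2 fold change of all tested genes in AntNPC went from 0.05 to -0.06 with quantile normalization. That of WT differentiation went from 0.17 to 0.42 scaled to the same sum, 0.04 with quantile normalization and -0.08 with centring, and that of the line labelled EED-/- from -0.01 to 0.23 scaled to the same sum. The cause of these moves was not tested. Fits without 1 of 2 mESC libraries assume that the remaining one varies like the other groups. Because depth is unknown, no counting error could be estimated for the values of Irx6 and of Irx1 and Irx5 in mESC. All of these are under 1 FPKM and may rest on few reads.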
